A study of Mus musculus with 8 samples.

Results

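The natriuretic peptide system was examined through 8 genes: the peptides Nppa, Nppb and Nppc, the receptors Npr1, Npr2 and Npr3, and the convertases Corin and Furin. The genes were taken by symbol and not by a measured value, though earlier results of these data were known. They are 8 of the 53465 genes of the deposited table, and 7 of them were among the 15388 genes tested, as Nppc did not pass the filter on low counts. RNA came from heart ventricles of mouse embryos at embryonic day 15.5. One group of 4 libraries was labelled WT and the other group of 4 carried the genotype label Nrg-1flox;Cdh5-CreERT2. In that line a Cre recombinase that needs tamoxifen is driven by the promoter of an endothelial cadherin gene, and it is meant to cut floxed neuregulin-1 sequence in endothelial cells, while cardiomyocytes and other cells keep the gene. The labels do not give the tamoxifen schedule, the number of embryos or whether WT embryos carried Cre or received tamoxifen. They also do not say that the libraries of a group came from separate litters or dissections, so each p-value measures the spread between these libraries only.

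Natriuretic peptides are hormones that act through cyclic GMP. Nppa and Nppb encode atrial and B-type natriuretic peptide, which are made by cardiomyocytes and released when the heart wall is stretched. In the fetal ventricle Nppa marks the trabecular myocardium, the inner meshwork of muscle. Both peptides signal through NPR1 (guanylyl cyclase A), whereas C-type natriuretic peptide, the product of Nppc, signals through NPR2 (guanylyl cyclase B). NPR3 lacks the cyclase and clears all of these peptides, and in the heart it is a marker of endocardium. Corin is a membrane protease of cardiomyocytes that cuts the precursor of atrial natriuretic peptide, and furin is a general convertase of the secretory pathway that cuts the precursors of the B-type and C-type peptides.

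The peptides share a ring closed by a disulphide bond, which the receptors recognise. The bases that code for it in Nppb and Nppc are shown because these peptides act on different cyclase receptors. The stretches were read from the GENCODE transcripts (release M21, GRCm38), from the first to the last cysteine codon of the ring. Each is 51 bases (17 codons) long and lies in exon 2 of 3. Capitals mark the bases that are the same in both genes.
Nppb, chr4:147986464-147986514, plus strand: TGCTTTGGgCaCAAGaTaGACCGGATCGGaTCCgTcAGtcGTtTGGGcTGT
Nppc, chr1:86669667-86669717, minus strand: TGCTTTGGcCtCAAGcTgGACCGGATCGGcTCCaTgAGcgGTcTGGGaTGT
Of the 51 bases, 40 were the same in both genes, and 13 of the 17 codons stood for the same residue. Nppb lies 13516 bases from Nppa on chromosome 4, and Nppc lies on chromosome 1.

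The targeted gene was checked first. Nrg1 was at 5.46, 4.64, 4.08 and 5.31 CPM (counts scaled to the library's normalised total) in WT libraries 1 to 4 and at 6.82, 6.33, 6.16 and 5.36 CPM in the other group, so it was not lower where the label says deleted. Its log2 fold change was 0.34 (SE 0.12, adjusted p = 0.311 in edgeR's quasi-likelihood test). A count over the whole gene includes transcripts of all cell types and of exons outside the floxed part. The group is therefore called Flox-labelled, and each direction here is that of the libraries with this label. The totals of expected counts per library lay between 16761763 and 24144272. The design notes speak of 1 ventricle per replicate, while 7 of 8 libraries held more than 20 counts of both the female-specific Xist and the Y-linked genes. The exception was WT library 4, with Xist at 0.176 CPM. Mean Xist was 120 ± 86.3 CPM in WT and 244 ± 97.7 CPM in Flox-labelled libraries (SD, n = 4), with overlap. The summed Y-linked level ranged from 69.3 to 171 CPM in WT and from 42.9 to 120 CPM in Flox-labelled libraries, and it was used as a covariate in an alternative fit. Its means were 119 ± 41.7 and 72.4 ± 33.4 CPM (SD, n = 4), so this covariate and the group cannot be fully told apart. The genes listed for ventricular muscle were high throughout, with a summed level of Myl2, Myl3, Tnnt2, Tnni3, Actn2 and Myh7 of 31839 to 35856 CPM. The 8 atrial markers summed to 1596 to 1825 CPM, and these sums do not tell whether atrial tissue was present.

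Levels were first compared between the genes per length, as CPM per kilobase of merged exons, over all 8 libraries. Nppa stood at 2172 ± 385 (SD, n = 8) and ranked 18 among 15374 tested genes with an annotated length. Nppb followed at 181 ± 16.6 and ranked 243, so that Nppa was 12-fold above it on this scale. Corin was at 23 ± 1.42, Furin at 14.3 ± 0.93 and Npr3 at 13.3 ± 1.04 CPM per kilobase (SD, n = 8). The ranges of Furin and Npr3 overlapped, although Furin was the higher in 8 of 8 libraries. The cyclase receptors were lower, Npr2 at 6.76 ± 0.321 and Npr1 at 5.07 ± 0.299, and Nppc closed the order at 0.173 ± 0.0678 CPM per kilobase (SD, n = 8). All neighbours in this order other than Furin and Npr3 had ranges that did not overlap. Merged exons take in all annotated transcripts, so the order depends on the lengths used. By mean CPM without length, Furin (138 in WT and 125 in Flox-labelled libraries) was above Corin (129 and 119).

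**Figure D1:**
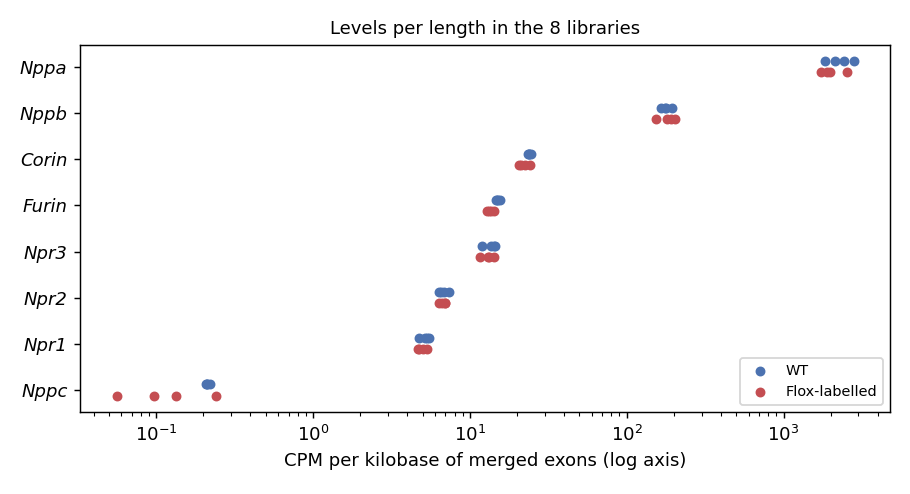
Levels of the 8 genes per length, in CPM per kilobase of merged exons on a log axis, with 1 point for each of the 4 WT (blue) and 4 Flox-labelled (red) libraries. Nppa lies between 1728 and 2799, Nppb between 154 and 205, the receptors and convertases between 4.70 and 24.5, and Nppc between 0.0565 and 0.242.

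The ratio of Nppa to Nppb per length was not constant. It was 12, 14.8, 10.5 and 14.3 in WT libraries 1 to 4 and 10.5, 9.71, 11.2 and 13.3 in Flox-labelled libraries 1 to 4, so the ranges of the groups overlapped. Among the receptors, the clearance receptor Npr3 exceeded the cyclase receptor Npr1 in every library, by 2.19-fold to 2.99-fold, and Npr2 exceeded Npr1 by 1.20-fold to 1.48-fold.

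Nppa (ENSMUSG00000041616, GRCm38 chromosome 4, 148000722 to 148002079, plus strand) reached 1852, 2113, 1581 and 2421 CPM in WT libraries 1 to 4. The corresponding Flox-labelled values were 1642, 1718, 1495 and 2208 CPM. The groups overlapped widely, and in each group library 4 was the highest and library 3 the lowest. The means were 1992 ± 359 and 1766 ± 309 CPM (SD, n = 4), a fitted fold of 0.886 with a 95% confidence interval of 0.735 to 1.07. This log2 fold change of -0.17 (SE 0.125, adjusted p = 0.684 in edgeR's quasi-likelihood test) did not pass. The value moved when single libraries were left out, being -0.07 without WT library 4 and -0.30 without Flox-labelled library 4. Within each library number the Flox-labelled value was the lower, which also held for Npr1, Npr3 and Furin. The share of all tested genes with this pattern was not counted. A fit with the library number as a block kept Nppa at -0.17 (SE 0.0351, adjusted p = 0.0661 in edgeR's test). The fit that held the Y-linked sum as a further term gave -0.03. Library 4 of each group also had the highest Y-linked sum of its group, at 171 and 120 CPM, and the highest summed level of the trabecular markers, at 500.5 and 430 CPM. The part of these in the Nppa value was not tested. In bulk RNA, fewer cells of a type and less RNA per cell cannot be told apart.

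Nppb (ENSMUSG00000029019, chromosome 4, 147985788 to 147987205, plus strand) stood at 139, 129, 136 and 153 CPM in WT libraries 1 to 4 and at 142, 160, 120 and 150.0 CPM in Flox-labelled libraries 1 to 4. Flox-labelled libraries 2 and 3 held both the highest and the lowest of all 8 values. The log2 fold change was 0.04 (SE 0.0744, adjusted p = 0.922 in edgeR's test), with a 95% confidence interval of 0.918 to 1.15 for the fold. It was the only one of the 7 tested genes with a value above 0, and it turned to -0.02 without Flox-labelled library 2. The spread between WT libraries was smaller for Nppb than for Nppa, with a coefficient of variation of 7.15% against 18.0%.

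Nppc (ENSMUSG00000026241, chromosome 1, 86666291 to 86670571, minus strand) was near the limit of detection. Each WT library held 5 reads of it, and Flox-labelled libraries 1 to 4 held 2, 6, 3 and 1 reads. That is 20 reads in WT and 12 in Flox-labelled libraries, at 0.0589 to 0.252 CPM. Nppc did not pass the filter on low counts. Without the filter its log2 fold change was -0.62, with a 95% confidence interval of -1.97 to 0.73 (edgeR adjusted p = 0.752), so a difference was not detectable at this depth.

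**Figure D2:**
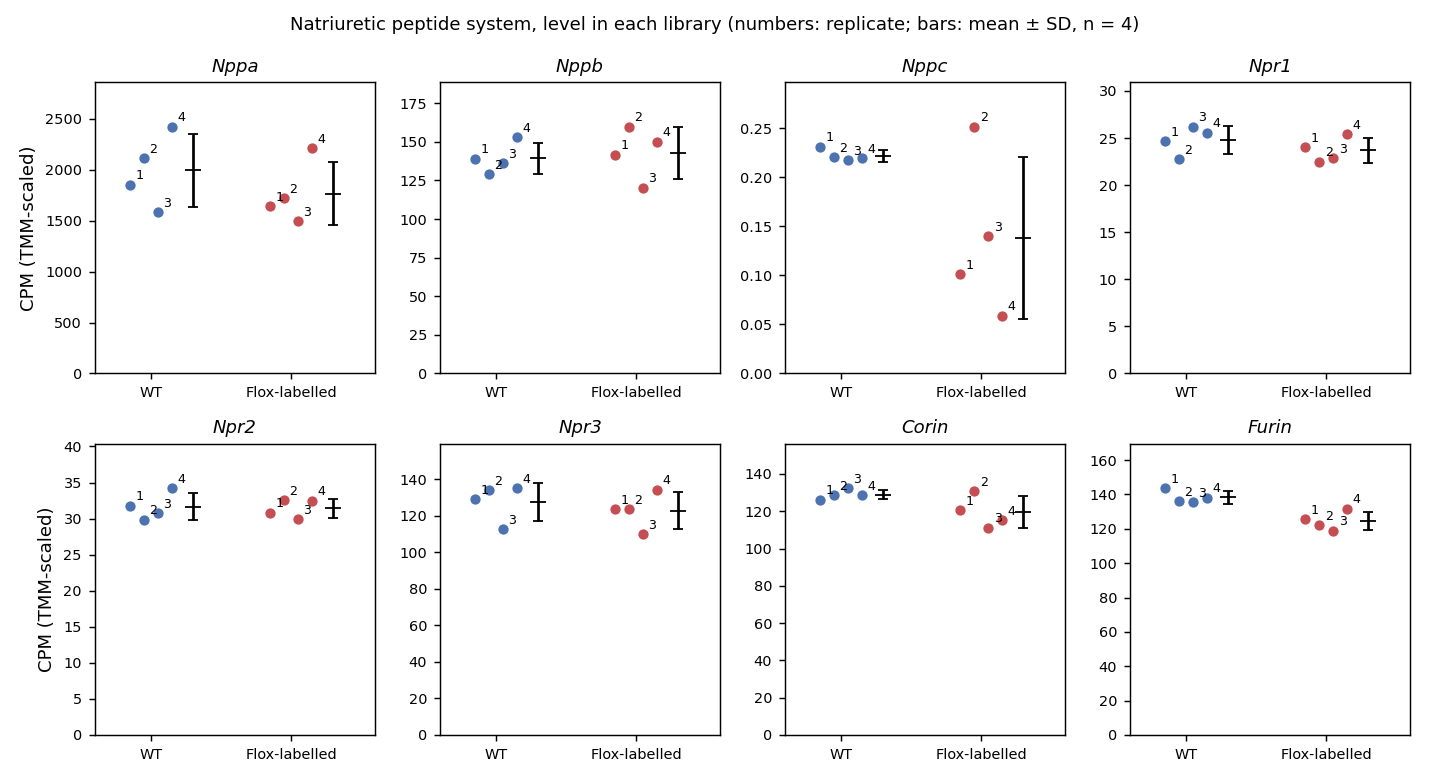
CPM of each gene in the 4 WT (blue) and 4 Flox-labelled (red) libraries, with the replicate number beside each point and the mean ± SD (n = 4) as a black bar; axes start at 0. Nppa varied most among the 7 tested genes, and only for Furin do the groups not overlap (135 to 144 against 119 to 132 CPM).

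The stretch of chromosome 4 that holds Nppb and Nppa was looked at in a window of 50000 bases on either side. Of the other protein-coding genes there, Plod1 (log2 fold change -0.03), 2510039O18Rik (0.04) and Clcn6 (-0.01) had adjusted p of 0.796 to 0.966 in edgeR's test. Clcn6 encodes a chloride transporter, runs on the opposite strand just beyond Nppa and had a mean of 5.34 CPM per kilobase beside the 2172 of Nppa. Gm13054, a noncoding gene on the opposite strand, shares 532 exonic bases with Nppa and was at 0.839 to 2.53 CPM. The libraries were made with a directional kit, but whether counting used the strand is not stated, so reads of such pairs cannot be told apart with certainty. Summing Gm13054 with Nppa left the log2 fold change of Nppa at -0.17. The expected counts of Nppa were not whole in 8 of 8 libraries, which shows that RSEM divided some of its reads.

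Upstream sequence is shown for the peptide genes of the heart because the factors known to bind it were measured in the same libraries. The sequences are those of RefSeq (GRCm38.p6), which held an entry for each of the 8 genes, and positions count back from the RefSeq start, with -1 as the last base before it. Capitals mark matches on either strand to a GATA motif (AGATAA or TGATAA), an NKX2-5 element (TNAAGTG), a T-box element (TCACACC) or an MCAT element (CATTCC, bound by TEAD factors), and on the forward strand to a TATA box (TATAAA). The searched motifs did not overlap in these stretches.
Nppa, chr4:148000472-148000721, plus strand: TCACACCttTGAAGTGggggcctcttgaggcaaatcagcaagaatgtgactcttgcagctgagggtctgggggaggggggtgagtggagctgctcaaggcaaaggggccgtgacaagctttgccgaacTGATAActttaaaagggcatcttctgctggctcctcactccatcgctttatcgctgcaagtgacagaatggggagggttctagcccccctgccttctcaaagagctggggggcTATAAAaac
Nppb, chr4:147985793-147985822, plus strand: caGGAATGcagcTGATAAatcagAGATAAc
The Nppa stretch held a T-box element at -250, an NKX2-5 element at -241, a GATA motif at -122 and a TATA box at -9. The 250 bases before the RefSeq start of Nppb held an MCAT element at -105, GATA motifs at -95 and -84 and a TATA box at -31. GENCODE places the start of Nppb further upstream, inside this window, so the printed stretch with the first 3 of these is upstream by RefSeq only. Over all 32851 windows of this length, 16.6% held a GATA motif, 10.1% an NKX2-5 element, 3.33% a T-box element, 12.6% an MCAT element and 7.59% a TATA box. Of the other 6 genes, Furin had an NKX2-5 element at -206 in the window of 1 of its 2 starts, and Nppc, Npr1, Npr2, Npr3 and Corin had no match to the GATA, NKX2-5, T-box or MCAT letters. These are matches of letters in a window, not measured sites.

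The receptors differed little between the groups. Npr1 (chromosome 3, 90450591 to 90465866, minus strand), the receptor of the atrial and B-type peptides, was at 24.7, 22.8, 26.2 and 25.6 CPM in WT and at 24, 22.5, 22.9 and 25.4 CPM in Flox-labelled libraries. Its fold was 0.953 with a 95% confidence interval of 0.874 to 1.04 (adjusted p = 0.742 in edgeR's test). Npr2 (chromosome 4, 43631935 to 43651244, plus strand), the receptor of C-type natriuretic peptide, was at 31.8, 29.8, 30.8 and 34.2 CPM in WT and at 30.8, 32.5, 29.9 and 32.5 CPM in Flox-labelled libraries. With a fold of 0.993 and an interval of 0.920 to 1.07 (adjusted p = 0.976 in edgeR's test), it had the smallest difference of the 7 tested genes. With the Y-linked covariate the log2 values of Npr1 and Npr2 turned from -0.07 and -0.01 to 0.03 and 0.05. Npr1 was -0.04 without WT library 3 and -0.11 without WT library 2, and Npr2 was 0.03 without WT library 4 and -0.04 without WT library 2.

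Npr3 (ENSMUSG00000022206, chromosome 15, 11839896 to 11907287, minus strand), the clearance receptor, had WT values of 129, 134, 112 and 135 CPM. The Flox-labelled values were 124, 124, 110 and 134 CPM, in the order of libraries 1 to 4. Library 3 was the lowest and library 4 the highest in each group, which is the order seen for Nppa. The fold was 0.962 (95% confidence interval 0.874 to 1.06, adjusted p = 0.832 in edgeR's test). On the log2 scale this interval ran from -0.19 to 0.08. Of 10 endothelial markers, 8 fitted below 0 and 2 above, and their median, -0.07, lay inside it. So did the lowest of them, Kdr and Tie1 (-0.17 each), which did not pass, and Cdh5 (0.01), whereas Emcn (0.18) lay above it. The interval therefore does not tell whether Npr3 moved with these markers. The log2 fold change of Npr3, -0.06, was -0.01 without Flox-labelled library 3 and -0.11 without WT library 3. Its expected counts were not whole in 8 of 8 libraries. Npr1, Npr2 and Npr3 all have noncoding genes on the opposite strand that share some of their exons, each at no more than 1.71 CPM. Summing Npr1 with Gm16048, which shares 559 bases with it, moved Npr1 from -0.07 to -0.08.

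In edgeR's fit by group alone the convertases had the smallest p of the tested genes, but the differences were small and neither passed. Furin (ENSMUSG00000030530, chromosome 7, 80388585 to 80405436, minus strand) was at 144, 136.0, 135 and 138 CPM in WT and at 126, 122, 119 and 132 CPM in Flox-labelled libraries. Each Flox-labelled library was below each WT library, a pattern found downward in 2.98% of all tested genes. The means were 138 ± 3.76 and 125 ± 5.46 CPM (SD, n = 4), a fold of 0.900 with a 95% confidence interval of 0.852 to 0.951. The log2 fold change of -0.15 (SE 0.0368) had an adjusted p = 0.1 in edgeR's test and so did not pass over all tested genes. It did pass with DESeq2 (-0.15, adjusted p = 0.0183), without the filter on low counts (-0.15, edgeR adjusted p = 0.023) and without Flox-labelled library 4 (-0.18, edgeR adjusted p = 0.0368). These settings called more genes over the whole table too, 1.52%, 1.15% and 0.911% in that order. Over the 16 alternatives the adjusted p lay between 0.0183 and 0.423, and the highest came with the Y-linked covariate, at a log2 fold change of -0.11. Furin is made by most cell types of the heart.

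Corin (ENSMUSG00000005220, chromosome 5, 72300025 to 72504473, minus strand), the convertase of the atrial peptide, was at 126, 128, 132 and 129 CPM in WT libraries. In Flox-labelled libraries it was at 121, 131, 111 and 115 CPM, below all WT values in 3 of 4 libraries. The means were 129 ± 2.55 and 119 ± 8.48 CPM (SD, n = 4), with a fold of 0.927 and a 95% confidence interval of 0.867 to 0.992. The log2 fold change of -0.11 (SE 0.0449) had an adjusted p = 0.414 in edgeR's test, and 0 of 16 alternatives passed. Without Flox-labelled library 2 it was -0.15, and without Flox-labelled library 3 it was -0.08. The WT libraries lay close together, with a coefficient of variation of 1.98%, against 7.10% in Flox-labelled libraries.

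Among the 7 tested genes, 0 passed an FDR of 0.05 in edgeR's test, where 81 of 15388 tested genes (0.526%) did. At an unadjusted p below 0.05 there were 2 of the 7 (Furin and Corin), where 10.5% of all tested genes were, and DESeq2 called 1 (Furin) of the 7, where it called 1.52% of the genes to which it gave an adjusted p. The groups did not overlap for 1 of the 7, against 6.05% of all tested genes in either direction. Their median log2 fold change was -0.07, with 6 of 7 below 0, beside a median of -0.00 over all tested genes. The 7 genes were not tested as a group.

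**Figure D3:**
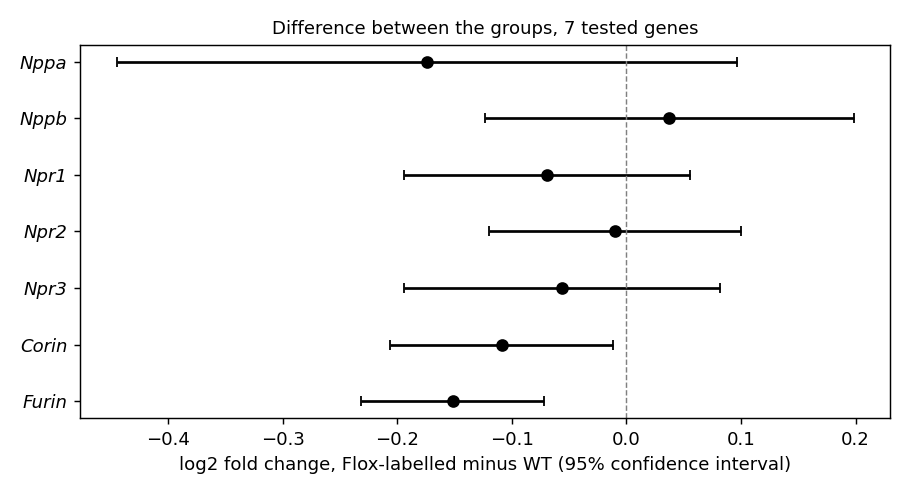
Log2 fold change of the 7 tested genes (points) with 95% confidence intervals (bars), Flox-labelled minus WT, from edgeR's quasi-likelihood fit. The intervals of Corin (-0.21 to -0.01) and Furin (-0.23 to -0.07) lie below 0, and that of Nppa is the widest, from -0.44 to 0.10.

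Genes of cyclic GMP signalling, through which the receptors act, were examined next as a list of 26. Of these, 22 were tested, 0 rose and 1 fell at an FDR of 0.05, where 0.214% of all tested genes fell, with a median log2 fold change of -0.03. The one that fell was Nos3, the endothelial nitric oxide synthase, whose product activates the soluble guanylyl cyclase. It was at 67.0, 68.4, 68.7 and 65.5 CPM in WT and at 60.0, 59.7, 60.3 and 60.9 CPM in Flox-labelled libraries, without overlap. The log2 fold change was -0.16 (SE 0.0294, adjusted p = 0.0383 in edgeR's test). The call did not survive the loss of a library in 7 of 8 cases, where the adjusted p was 0.0607 to 0.126, and remained without Flox-labelled library 4 only. With the Y-linked covariate Nos3 stood at -0.17 (edgeR adjusted p = 0.145), and over its 16 alternatives the value lay between -0.17 and -0.15. Of 10 endothelial markers 0 passed, 8 fitted below 0 and 2 above, and their summed level was 1214 to 1243 CPM in WT and 1138 to 1217 CPM in Flox-labelled libraries, with overlap. Their part in the Nos3 value was not tested.

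Of the other cyclic GMP genes, Rgs4 (-0.45), a brake on G protein signalling, Vasp (0.09), a substrate of the cyclic GMP-dependent kinase, and Nos2 (-0.20) had the smallest p and did not pass (adjusted p of 0.337, 0.356 and 0.598 in edgeR's test). Further along the pathway, the soluble cyclase subunit Gucy1a1 was at -0.08, the kinase Prkg1 at 0.03 and the phosphodiesterase Pde5a at -0.03. Phospholamban, encoded by Pln and a target of the kinase in heart muscle, was at 0.01 with a 95% confidence interval of -0.06 to 0.08. Untested for low counts were Nos1, Prkg2, Pde11a and Kcnma1.

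A list of 10 further enzymes and ligands that process, degrade or compete with the peptides held 6 that could be tested, and 0 of them passed in either direction, where 0.526% of all tested genes did. Ide, the insulin-degrading enzyme, which also cuts atrial natriuretic peptide, had means of 144 ± 4.63 and 154 ± 5.36 CPM in WT and Flox-labelled libraries (SD, n = 4; log2 fold change 0.10, adjusted p = 0.352 in edgeR's test). Dpp4 was at -0.18 (adjusted p = 0.364), Pcsk6, the convertase that activates corin, at -0.20 (adjusted p = 0.441), and Pcsk7 at -0.04 (adjusted p = 0.834). Neprilysin, encoded by Mme and the main degrading protease, was at 10.6 ± 1.28 and 10.8 ± 2.6 CPM (SD, n = 4). Ostn, which encodes a ligand of NPR3, and Mep1a were at 0 reads in all 8 libraries, and Pcsk1 and Pcsk2 were too low to be tested.

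Factors that are known to act on the Nppa and Nppb promoters were a list of 16, all tested, of which 2 rose and 0 fell, where 0.312% of all tested genes rose. Nkx2-5, the cardiac homeobox factor, was at 101, 96.4, 92.2 and 98.1 CPM in WT and at 111, 111, 116 and 112 CPM in Flox-labelled libraries. It rose in all Flox-labelled libraries above the WT range, with a log2 fold change of 0.21 (SE 0.0334, adjusted p = 0.0194 in edgeR's test). Gata6, a zinc finger factor that binds GATA motifs, had means of 180 ± 5.73 CPM in WT and 206 ± 5.57 CPM in Flox-labelled libraries (SD, n = 4), and this rise of 0.19 on the log2 scale passed as well (SE 0.0344, adjusted p = 0.0342 in edgeR's test). Nkx2-5 kept its call in 5 of 8 fits without a library and lost it without Flox-labelled library 3, WT library 2 or WT library 3 (adjusted p of 0.0632 to 0.0862), and Gata6 did so in 7 of 8 cases, all but the fit without Flox-labelled library 4 (0.0502 to 0.126). With the Y-linked covariate their values were 0.22 each (edgeR adjusted p of 0.0897 and 0.0688). Both calls held with DESeq2 (adjusted p of 3.47e-05 and 1.05e-05).

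Tbx5, a T-box activator of Nppa, went the other way without passing, at 46.1 ± 2.79 and 41.3 ± 2.79 CPM (SD, n = 4; log2 fold change -0.16, adjusted p = 0.277 in edgeR's test). Hey2, a transcriptional repressor of the compact wall, was at 156 ± 5.52 and 166 ± 4.15 CPM (SD, n = 4), with 0.09 on the log2 scale (adjusted p = 0.356). Gata4, the paralogue of Gata6, was at 0.06 with an interval of -0.01 to 0.12. The groups did not overlap for 3 of the 16 factors (Nkx2-5, Gata6 and Hey2), all upward, where 3.07% of all tested genes did so in that direction.

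**Figure D4:**
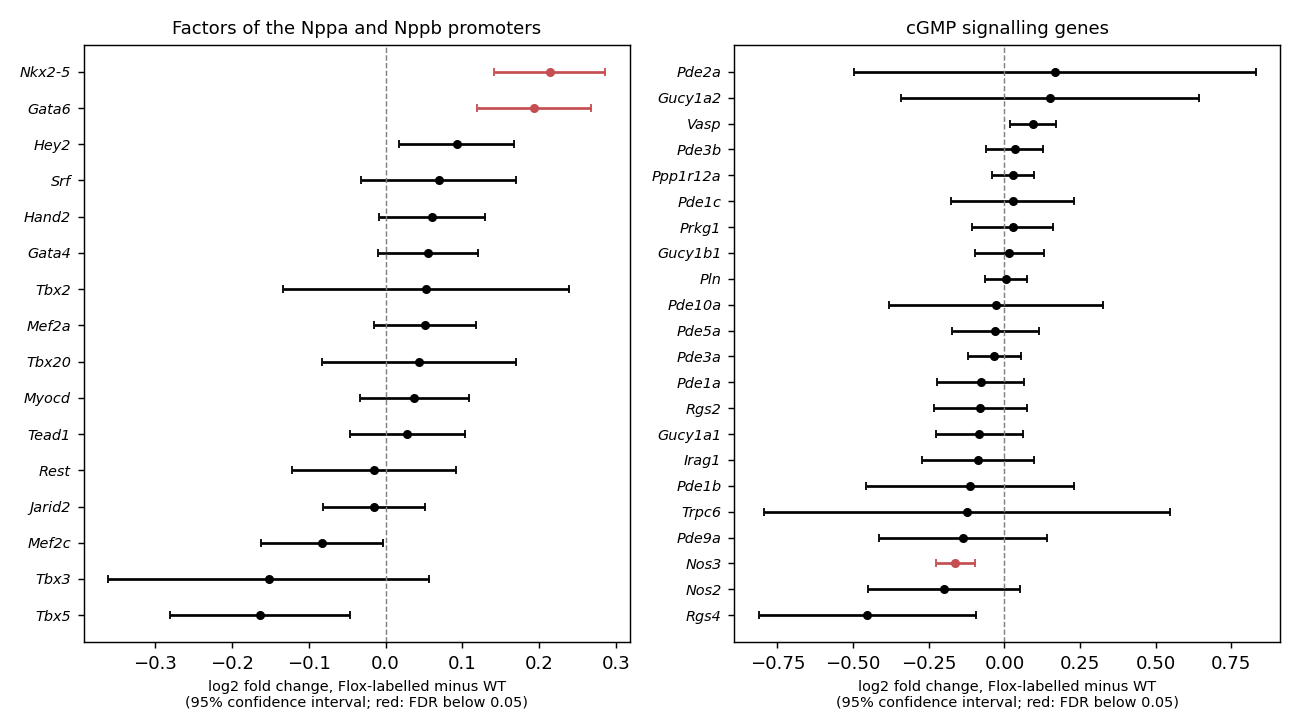
Log2 fold change, Flox-labelled minus WT, with 95% confidence intervals, of 16 promoter factors (left) and 22 tested cyclic GMP signalling genes (right), with those at an FDR below 0.05 in red. Nkx2-5 (0.21) and Gata6 (0.19) lie above 0 and Nos3 (-0.16) below it, and the other genes did not pass.

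Nppa and Nppb belong to the fetal genes that cardiomyocytes raise under load, and a list of 10 other genes linked to the fetal programme or to stretch was compared. Of these 1 rose and 0 fell, where 0.312% of all tested genes rose. Edn1, which encodes the vasoconstrictor endothelin-1, was at 10, 12.1, 12.1 and 14.5 CPM in WT and at 17.3, 19.8, 16.6 and 19.8 CPM in Flox-labelled libraries. Its log2 fold change was 0.59 (SE 0.102, adjusted p = 0.0328 in edgeR's test), lost in 6 of 8 fits without a library (0.0538 to 0.0985; not without Flox-labelled library 4 or WT library 4) and with the Y-linked covariate (0.66, adjusted p = 0.0875). The call of Edn1 held with DESeq2 (adjusted p = 0.000189). The stretch-responsive Ankrd1 (0.08), the slow myosin Myh7 (0.06) and the Z-disc gene Csrp3 (0.05) did not pass (adjusted p of 0.612, 0.729 and 0.753). The median of the list was 0.05. The cells that made Edn1 cannot be told in bulk RNA, so its value does not stand for cardiomyocytes.

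Markers of regions and cell types were set beside these values, and 0.214% of all tested genes fell. Of 6 trabecular markers, all fitted below 0 with a median log2 fold change of -0.30, Etv1 fell (-0.32, adjusted p = 0.0373 in edgeR's test), and Bmp10 (-0.55), Slit2 (-0.57) and Hcn4 (-0.29) had adjusted p of 0.0606, 0.072 and 0.0941. Without Flox-labelled library 4 these 3 passed, with adjusted p of 0.00851, 0.000993 and 0.0364 in edgeR's test. Without the filter on low counts they passed too (edgeR adjusted p of 2.91e-07, 4.64e-07 and 0.00424). With DESeq2 Hcn4 passed (adjusted p = 0.0424), whereas Bmp10 and Slit2 did not (DESeq2 adjusted p of 0.0765 and 0.126). The call of Etv1 was lost in 6 of 8 fits without a library (0.0723 to 0.139), all but those without library 4 of either group, and with the Y-linked covariate (-0.33, edgeR adjusted p = 0.144). That covariate moved Slit2 to -0.34. The summed trabecular level was 425 to 500.5 CPM in WT and 317 to 430 CPM in Flox-labelled libraries. Of 8 atrial markers all fitted below 0, and Kcnj3 fell (-0.46, adjusted p = 0.0261, lost in 5 of 8 fits without a library, namely Flox-labelled library 3 and each WT library, at 0.0585 to 0.111, and with the Y-linked covariate, at 0.0607). Stard10 (-0.28), Myl7 (-0.13) and Nr2f2 (-0.10) did not pass (adjusted p of 0.429, 0.475 and 0.597). Their sum was 1606 to 1825 CPM in WT and 1596 to 1755 CPM in Flox-labelled libraries. Atrial muscle is the richest source of Nppa in the heart, and the part of trabecular and atrial markers in the Nppa value was not tested.

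Of the endothelial and endocardial list, 0 of 10 passed, led by Esam (-0.15), Kdr (-0.17), Tie1 (-0.17) and Pecam1 (-0.09), with adjusted p of 0.0584, 0.0693, 0.121 and 0.357 in edgeR's test. Emcn, which encodes an endothelial sialomucin, was above 0 at 0.18 (adjusted p = 0.358), and Cdh5, whose promoter drives the Cre, was at 0.01. Kdr and Tie1 passed without Flox-labelled library 4 (adjusted p of 0.0498 and 0.0455). They also passed with DESeq2 (adjusted p of 0.00237 and 0.0199) and without the filter on low counts (edgeR adjusted p of 0.00762 and 0.013). These settings called more genes over the whole table too. Ventricular cardiomyocyte markers had a median near 0, with Myh7 (0.06), Actn2 (0.04), Myl3 (-0.02) and Tnnt2 (-0.02) leading by p. No member passed of the fibroblast (Postn -0.18, Pdgfra -0.12, Dcn -0.08, Tcf21 0.07), smooth muscle and mural (Acta2 0.12, Pdgfrb -0.15, Rgs5 -0.26, Myh11 -0.42), epicardial (Upk3b 0.15, Tbx18 0.12, Upk1b 0.16, Wt1 0.13), erythroid (Hba-a2 0.15, Hbb-bt 0.13, Alas2 0.11, Hbb-bs 0.10) or macrophage lists (Csf1r 0.14, Mrc1 0.11, Ptprc 0.18, Cd68 -0.07). Globin and other erythroid genes summed to 4265 to 9371 CPM in WT and 5843 to 9967 CPM in Flox-labelled libraries.

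The genes whose profile over the 8 libraries was most like that of a peptide gene were found by the mean absolute difference of log2 CPM after each gene was centred on its own mean, among 12110 protein-coding genes with a mean log2 CPM of at least 1. All genes of a library share its depth and its tissue makeup, so this is a description only. For Nppa the nearest were Tcf7 (0.0674), Pde1b (0.0772), Rasgef1b (0.0904), Rem1 (0.0914) and Bex2 (0.0929), beside a median of 0.216 over all candidates. Pde1b encodes a phosphodiesterase of cyclic nucleotides and is also in the cyclic GMP list. For Nppb they were P4ha1 (0.0366), Btc (0.0408), Mettl21a (0.0413), Slc19a2 (0.0422) and Spire1 (0.0468), beside a median of 0.121. Nppa and Nppb had no gene in common among these, and they were 0.187 from each other.

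Among the 7 tested genes themselves, the profile nearest to Nppa was that of Npr3, at 0.127, and the nearest to Nppb was that of Npr2, at 0.0585. The closest pair was Npr1 and Npr2, at 0.052. This distance is small between any genes that vary little, so on its own it does not show a shared profile. The mean absolute deviation from the gene's own mean was 0.207 for Nppa, 0.103 for Nppb, 0.091 for Npr3 and 0.0754 for Corin. Npr3 was most like Sall1 (0.0284), Map9 (0.0288), Bbs4 (0.0314), Cnot4 (0.0317) and Tmem108 (0.0365), beside a median of 0.111. Corin was most like Rps6 (0.0195), Chrm2 (0.0241), Nck2 (0.0298), Commd8 (0.0307) and Aamp (0.0315), beside a median of 0.0953. Chrm2 encodes the muscarinic acetylcholine receptor of the heart and was at 46.8 to 58.7 CPM.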

How the data were processed

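The values deposited by the authors are expected counts from RSEM, 1 row for each Ensembl gene. They are estimates that divide reads matching several genes, so they need not be whole. Per the labels, poly(A) RNA was made into directional libraries, sequenced as single reads of 60 bases, and the submitters' processing notes name cutadapt, RSEM 1.3.1 and GRCm38. The table's name gives Ensembl release 91. The aligner and strand setting are not given in the sources used here.

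Counts were rounded, filtered with filterByExpr, scaled with TMM factors and compared with edgeR 4.0.16 (glmQLFit, glmQLFTest, two-sided, group as the only term) in R 4.3.3, with p-values adjusted by Benjamini-Hochberg across the 15388 genes tested, at an FDR of 0.05. Standard errors and 95% intervals come from the F statistic. CPM use the TMM factors, and log2 CPM a prior count of 2. The fit was tested on simulated data. Alternatives were scaling by RLE or by totals, testing without a filter or with a minimum of 1 CPM in 4 libraries, DESeq2 1.42.0, leaving out each library, the replicate number as a block, a Y-linked covariate, and summing genes that share at least 0.5 of exonic bases. Symbols, positions and lengths are from GENCODE M21 (GRCm38), which matched 53360 of 53465 identifiers.

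The genes, lists and tests were chosen with earlier results of these data known. All 8 genes were named, from each list the called genes or at least the 4 with the smallest p, and for Nppa, Nppb, Npr3 and Corin the 5 most similar genes. Gata4, Gucy1a1, Prkg1, Pde5a, Pln, Mme, Emcn, Cdh5, untested list genes and genes near the peptide genes were named beyond this rule, after their values were seen. Some items are not reported here, so the erythroid list was used without one of its genes. Figures were drawn with matplotlib 3.10.9.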

Additional observations from a re-analysis of the deposited data

Results flagged for a closer look

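Of 160 groups of 4 values examined (the genes named here), 7 held a library that stood far from the other 3, and chance alone gives about 8. None of the 8 genes of the natriuretic peptide system was among them. In Flox-labelled library 4, Tcf7 was at 3.83 CPM against 2.77 to 2.93 CPM in the other 3 libraries of its group, Rasgef1b at 32.4 against 24.7 to 25.6 CPM and Ptprc at 6.95 against 3.69 to 4.01 CPM. Tcf7 and Rasgef1b were picked for their likeness to Nppa, which was also highest in that library. In WT library 4, Bex2 was at 4.70 CPM against 3.42 to 3.62 CPM. In WT library 3, Map9 was at 16.2 CPM against 20.05 to 20.7 CPM and Cnot4 at 25.2 CPM against 28.8 to 29.4 CPM, both picked for their likeness to Npr3. In WT library 1, Rgs4 was at 2.59 CPM against 4.00 to 4.17 CPM.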

How the results depend on the processing

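The number of the 7 tested genes called stayed at 0 under RLE and total scaling, the CPM filter, the replicate block, the Y-linked covariate and the summing of overlapping genes. It was 1 without a filter and 1 with DESeq2 (Furin in each), and 0 to 1 when a library was left out (1 without Flox-labelled library 4, Furin again). The count over all tested genes, 81, became 338 without a filter, 189 with DESeq2 and 16 with the Y-linked covariate, and 11 to 142 when a library was left out (lowest without Flox-labelled library 3, highest without Flox-labelled library 4). Leaving a library out lowers the sample number by construction, and otherwise the cause was not tested.

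With the Y-linked covariate Npr1 (0.033), Npr2 (0.046), Rem1 (0.044), Bex2 (0.13), Sall1 (0.0012) and Map9 (0.0068) changed direction. When a library was left out, turns occurred for Nppb (-0.0203 to 0.112), Npr2 (-0.0376 to 0.0309), and the marker and likeness genes Myl3 (-0.0423 to 0.0155), Tnnt2 (-0.0401 to 0.0218), Tcf21 (-0.00136 to 0.157), Hba-a2 (-0.0512 to 0.351), Alas2 (-0.0896 to 0.342), Hbb-bt (-0.0571 to 0.341), Hbb-bs (-0.0979 to 0.303), Ptprc (-0.0669 to 0.304), Cd68 (-0.232 to 0.162), Bex2 (-0.184 to 0.0449), Btc (-0.0597 to 0.108), Mettl21a (-0.0551 to 0.0689), Sall1 (-0.079 to 0.00263) and Map9 (-0.102 to 0.0112).

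Same-numbered libraries deviated together weakly, with correlations across genes of 0.0998, 0.0474, 0.0447 and 0.121. Each library still correlated best with its own number (-0.0877 to 0.0195 for other numbers). The labels do not say that a number pairs libraries, so the number was left out of the reported fit. What same-numbered libraries share was not tested. With the replicate block 93 genes were called over all tested genes. Nppa kept its log2 fold change of -0.17, with an adjusted p = 0.0661 in edgeR's test, the lowest of its 16 alternatives (up to 0.971). It was lower in 4 of 4 same-numbered libraries, as were Npr1, Npr3 and Furin. Furin was at -0.15 with an adjusted p = 0.0767 under the block. The block ended the calls of Nos3 (adjusted p = 0.0571) and Etv1 (0.0577) and added Bmp10 (0.00468) and Slit2 (0.0171), and changed no other call among the genes named.

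Depth limits Nppc, with 1 to 6 reads per library.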
